A study of Mus musculus with 35 samples.

Results

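Chemokines and their receptors were followed across 6 sorted cell fractions of the mouse mammary gland, in mice that had borne and nursed young and in virgin mice. The members were every measured gene with a symbol of the form Ccl, Cxcl, Ccr or Cxcr plus a number, together with Cx3cl1, Cx3cr1, Xcl1, Xcr1 and Ackr1 to Ackr4. This gave 55 of 19937 measured genes: 34 ligands, 17 signalling receptors and 4 atypical receptors. Membership was set by the symbol alone, and a gene with several probe sets was read from the one with the highest mean over the 35 samples.

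Chemokines are small secreted or membrane-anchored proteins that steer the movement of cells along concentration gradients. Signalling receptors couple to inhibitory G proteins and direct migration, whereas the atypical receptors of the Ackr group bind chemokines without that coupling and remove or transport them. In the mammary gland, macrophages and eosinophils drawn in by chemokines take part in ductal growth, and immune cells enter and leave during pregnancy, lactation and regression.

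Expression was measured in 35 samples on 1-colour Affymetrix arrays, 1 array per sample. Parous females were put to the male when 42 days old, nursed their young for 21 days and then went through 40 days of involution, in which the gland returns to rest. Nulliparous controls were virgin mice of the same age, and the strain and any agent or allele are not given in the labels. Replicates of a group are labelled as biological replicates, each from a pool of 5 mice and the 4th pair of glands, and the labels do not say whether samples of the same number in different fractions came from the same pool.

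The fractions were stromal cells, total epithelial cells, luminal CD24-high Sca1- cells, luminal CD24-high Sca1+ cells, basal CD24-low Sca1- CD49f-low cells and basal CD24-low Sca1- CD49f-high cells. CD24, Sca1 and CD49f are surface proteins used for the sort. Each fraction had 3 nulliparous and 3 parous samples, except parous CD49f-high cells with 2, since a further array did not hybridize properly. CD49f-high samples came from 2000 cells and all others from 10000 cells, so the sort and the number of cells cannot be told apart in that fraction. All values are log2 expression per probe set, all differences are in log2 units, and ± gives the SD. A gene is said to be called when its adjusted p in limma was under 0.05, with Benjamini-Hochberg adjustment over all 19937 genes.

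The sorts were checked against marker lists. The mean log2 level of 10 fibroblast genes was 10.42 ± 0.17 (n = 3) in nulliparous stromal samples and 6.9 ± 0.35 (n = 3) in nulliparous total epithelial samples. All 10 basal markers were higher in basal than in luminal cells, and 10 of 11 pan-luminal markers were lower, while Gata3 was higher. In nulliparous stromal samples 9 of 11 pan-luminal genes lay above the median level of the arrays, with a list mean of 7.55 ± 0.75 (n = 3) against 9.6 ± 0.12 (n = 3) in nulliparous total epithelial samples. Replicates of 10000 cells correlated across genes at r of 0.977 to 0.991 over 30 pairs, and replicates of 2000 cells at 0.963 to 0.978 over 4 pairs. The number of arrays limits the precision.

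The 55 genes differed widely in how far they varied. A group mean above the median of all deposited values, 5.86, was seen for 36 members: 27 ligands, 5 signalling receptors and all 4 atypical receptors. The median is a mark of brightness on these arrays, not a limit of detection. Group means lay more than 1 log2 unit apart for 26 members, and 21 of these were ligands. The levels of 29 members, 52.7%, differed among the 6 fractions in the moderated F test, against a background of 52.7% of all genes, the same share. Called members were 22 of 34 ligands, 3 of 17 signalling receptors and 4 of 4 atypical receptors.

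**Figure D1:**
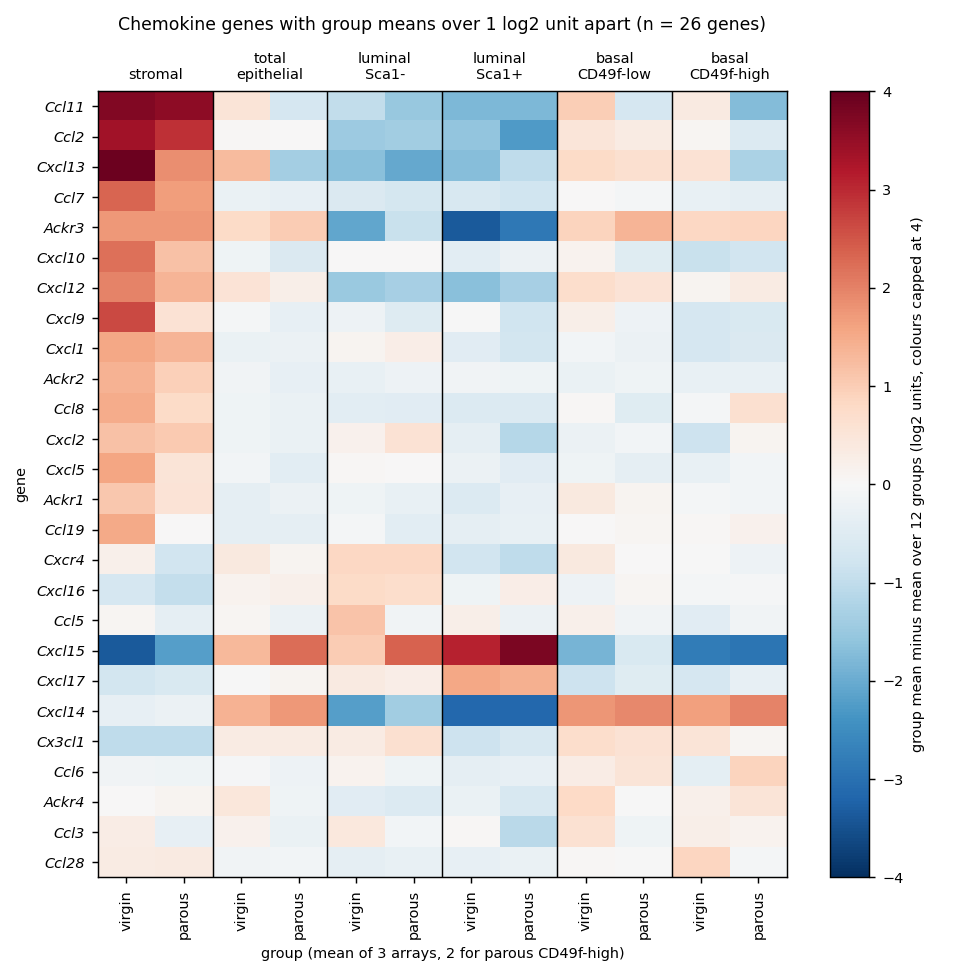
The 26 chemokine family genes (rows) with group means over 1 log2 unit apart, in 12 groups (columns, virgin and parous mice in each of 6 fractions). The colour gives the group mean minus the gene's mean over the 12 groups, in log2 units, with the largest deviations capped. Log2 group means of Ccl11, Ccl2 and Cxcl13 reach 12.1, 11.47 and 11.43 in nulliparous stromal cells, and that of Cxcl15 reaches 11.11 in parous luminal Sca1+ cells. Cxcr4 is the only signalling receptor among the rows.

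Stromal cells were compared with total epithelial cells to find which compartment held which ligand. Stromal cells had the higher level of 18 members and the lower level of 6, against a background of 29.2% of all genes called (13.6% higher and 15.6% lower). Called members were 43.6% of the family: 20 ligands, 3 atypical receptors and 1 signalling receptor. The median difference was 0.14 over the members and 0.02 over all genes.

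Ligands of the monocyte receptor Ccr2 and the eosinophil receptor Ccr3 led the stromal side. Ccl11, or eotaxin, which draws eosinophils, ran from 11.87 to 12.23 (median 12.04) in 6 stromal samples and from 6.99 to 9.44 (median 8.58) in 6 total epithelial samples. The groups did not overlap, and the difference was 3.72 (SE 0.23, adjusted p = 1.2e-13). Ccl2, a monocyte attractant, ran from 10.96 to 11.57 (median 11.25) in stromal samples and from 7.95 to 8.43 (median 8.11) in total epithelial samples. Every stromal sample lay above every epithelial one, by 3.11 on average (SE 0.22, adjusted p = 1.7e-12). Ccl7, a further ligand of Ccr2, was higher by 2.29 (SE 0.13). Ccl8, grouped here only by its place in the same run of genes on chromosome 11, was higher by 1.34 (SE 0.28).

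Ligands of other receptors followed. Cxcl13, which attracts B cells through Cxcr5, was higher in stromal cells by 2.93 (SE 0.64, adjusted p = 6.4e-04). It was also the most scattered, with samples from 5.68 to 9.94 in total epithelial cells. The ligands of Cxcr3, the receptor of activated T cells, were higher as well: Cxcl10 by 2.05 (SE 0.14), Cxcl9 by 1.82 (SE 0.18) and Cxcl11 by 0.49 (SE 0.09). The neutrophil attractant Cxcl1 was higher by 1.69 (SE 0.11) as were its relatives, Cxcl2 by 1.32 (SE 0.2), Cxcl5 by 1.31 (SE 0.15) and Cxcl3 by 0.52 (SE 0.13). Cxcl12, the ligand of Cxcr4, was higher by 1.29 (SE 0.16), Ccl19 by 1.12 (SE 0.2) and Ccl25 by 0.43 (SE 0.13). Probe sets not used here differed by 2.43, 1.67 and 0.15 for Ccl19 and by 0.07 for Ccl25. Among atypical receptors, Ackr2, a scavenger of inflammatory CC chemokines, was higher by 1.4 (SE 0.12), the venular receptor Ackr1 by 1.12 (SE 0.19) and the Cxcl12 scavenger Ackr3 by 0.83 (SE 0.15). With 13.6% of all genes higher in stromal cells and 15.6% lower, fibroblast markers were higher for 10 of 10 genes and endothelial markers for 8 of 10. Macrophage and dendritic markers were higher for 1 of 14 and lower for 1, and lymphocyte markers higher for 2 of 12. Granulocyte and mast cell markers were higher for 2 of 10 and lower for 1. Their part in the ligands' levels was not tested.

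On the epithelial side stood Cxcl15, a CXC chemokine known from lung epithelium. It ran from 3.72 to 5.78 in 6 stromal samples and from 7.87 to 10.02 in 6 total epithelial samples. No stromal sample reached an epithelial one, and the difference was -4.54 (SE 0.38, adjusted p = 7.8e-11). Cxcl14, which attracts monocytes and dendritic cells and is made by many epithelia, differed by -1.84 (SE 0.11). Both membrane-anchored chemokines were lower in stromal cells: Cx3cl1, or fractalkine, by -1.34 (SE 0.11) and Cxcl16 by -0.97 (SE 0.16). The mucosal chemokine Cxcl17 differed by -0.73 (SE 0.17). Cxcr4, the Cxcl12 receptor, differed by -0.54 (SE 0.13, adjusted p = 0.00213) and was the only signalling receptor called here.

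Cxcl15 and Cxcl1 are neighbours on chromosome 5 in the RefSeq gene order of GRCm38.p6, with no protein-coding gene between them, and their levels lay on opposite sides of this comparison. Their RefSeq promoters (GRCm38.p6) are therefore shown side by side, as the 150 bases before each gene's start, 5′ to 3′ on the gene's strand. The stretch of Cxcl1 is chr5:90891095-90891244 (plus strand) and that of Cxcl15 is chr5:90794384-90794533 (plus strand). Capitals mark letters that match the NF-kB consensus, the binding motif of inflammatory NF-kB transcription factors.
Cxcl1: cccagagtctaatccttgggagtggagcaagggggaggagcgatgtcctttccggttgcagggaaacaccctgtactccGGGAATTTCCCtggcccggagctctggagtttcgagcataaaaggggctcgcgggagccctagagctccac
Cxcl15: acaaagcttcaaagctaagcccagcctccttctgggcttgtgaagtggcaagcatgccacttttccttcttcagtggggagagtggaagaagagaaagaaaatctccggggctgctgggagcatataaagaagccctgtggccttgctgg
The capitals in Cxcl1 are 2 overlapping matches, beginning 71 and 70 bases before the start. In the 250 bases before each start, searched on both strands, the NF-kB consensus matched in 3.9% of 32851 promoters and in 8 of the 41 members with an entry (19.5%): Ackr2, Ccl20, Ccl9, Ccr3, Cxcl1, Cxcl10, Cxcl2 and Cxcl3. No match was found in Cxcl15, which says only that these letters are not in that window.

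**Figure D2:**
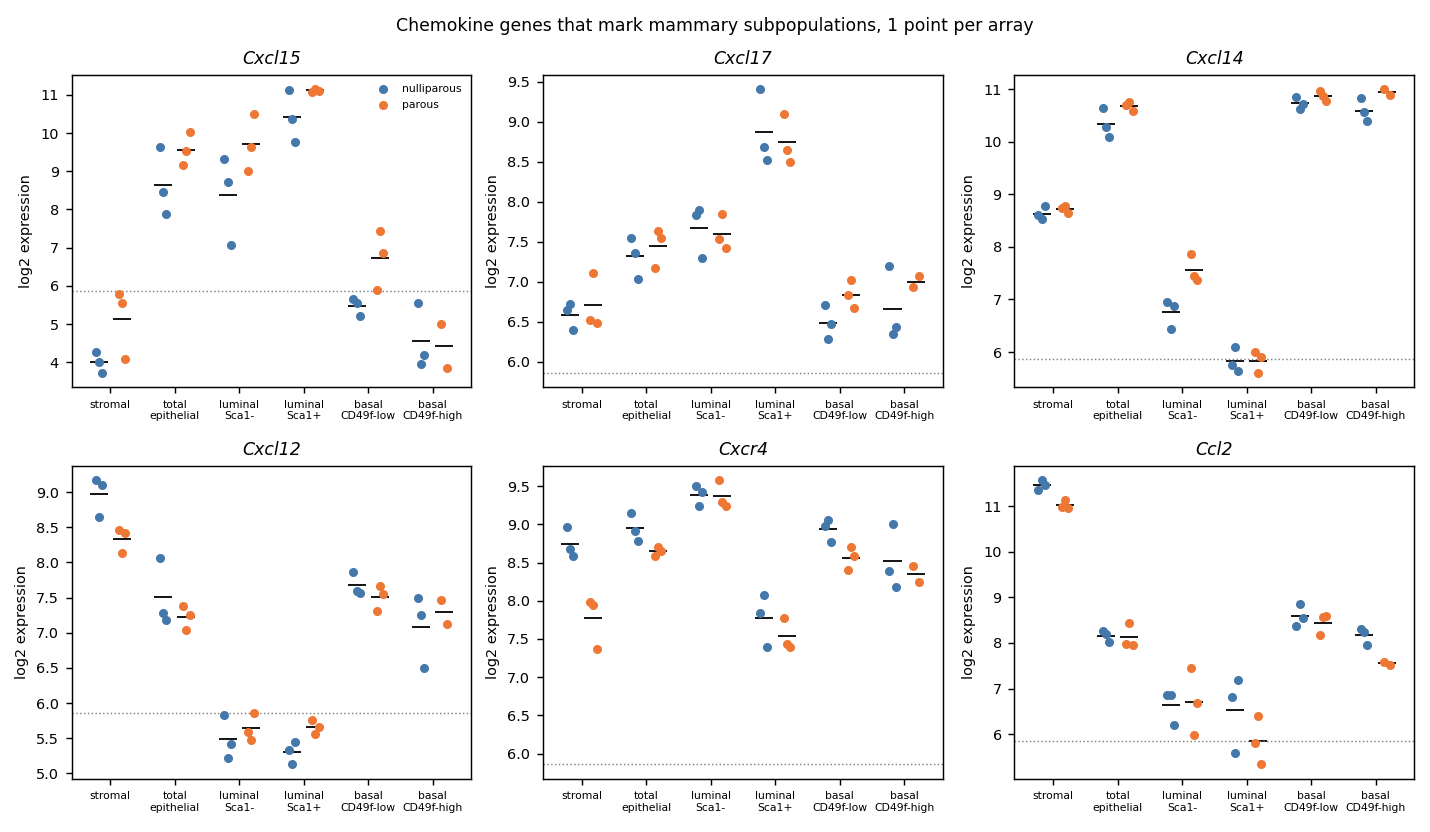
Log2 expression of 6 chemokine family genes, 1 point per array, in 6 fractions (x axis), with nulliparous samples in blue, parous samples in orange, the group mean as a black line and the median of all deposited values, 5.86, as a dotted line. Cxcl15 and Cxcl17 are highest in luminal Sca1+ cells, Cxcl14 in basal cells, Cxcl12 and Ccl2 in stromal cells, and Cxcr4 is lower in luminal Sca1+ than in luminal Sca1- samples, with 7.65 ± 0.28 against 9.38 ± 0.14 (n = 6 each).

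Basal cells (11 samples) were then compared with luminal cells (12 samples), averaged over both sorts of each kind and over history. Basal cells had the higher level of 13 members and the lower level of 7, with 36.4% of members called against a background of 35% of all genes (15.5% higher and 19.5% lower). The share of members was near that of all genes, and the family's result here lies in which members differed. The median difference was 0.06 over the members and 0 over all genes.

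Cxcl14 had the largest difference among the members higher in basal cells. It ran from 10.63 to 10.96 in 6 basal CD49f-low samples and from 10.39 to 11.01 in 5 CD49f-high samples, but from 6.44 to 7.87 in 6 luminal Sca1- samples and from 5.6 to 6.09 in 6 luminal Sca1+ samples. Basal and luminal samples were more than 2 log2 units apart at the closest, and the difference was 4.29 (SE 0.08, adjusted p = 1.5e-25). Ackr3 stood at 9.12 ± 0.28 (n = 6) in CD49f-low and 8.82 ± 0.16 (n = 5) in CD49f-high cells, against 6.5 ± 0.72 (n = 6) in luminal Sca1- and 4.88 ± 0.51 (n = 6) in luminal Sca1+ cells. The difference was 3.28 (SE 0.11, adjusted p = 6.7e-20). Its ligand Cxcl12 was higher in basal cells by 1.87 (SE 0.11), with 7.59 ± 0.18 (n = 6) in CD49f-low and 5.48 ± 0.23 (n = 6) in luminal Sca1+ cells. Ligand and scavenger each had their highest fraction mean in stromal cells and the next in CD49f-low cells.

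Other members higher in basal cells were Cxcl13 by 1.8 (SE 0.47), Ccl2 by 1.75 (SE 0.16), Ccl11 by 1.25 (SE 0.17) and Cx3cl1 by 0.59 (SE 0.08). Ackr4, an atypical receptor that removes Ccl19 and Ccl25, was higher by 0.86 (SE 0.09). The remaining 5 on the basal side, Ccl6, Ccl8, Ccl7, Ackr1 and Ccl19, differed by 0.38 to 0.52. Probe sets of Ccl19 that were not used differed by 0.67, 0.2 and 0.01. With 15.5% of all genes higher in basal cells and 19.5% lower, fibroblast markers were higher for 5 of 10 genes. Endothelial markers were higher for 2 of 10 and lower for 1, and macrophage and dendritic markers higher for 3 of 14 and lower for 1. No lymphocyte marker was called, and of 10 granulocyte and mast cell markers Kit was lower. The fibroblast list mean ran from 5.78 to 6.14 in luminal samples, from 6.22 to 7.07 in CD49f-low samples and from 5.84 to 6.4 in CD49f-high samples. The part of these cell types in the levels of Ccl2, Ccl11 and Cxcl13 was not tested.

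Luminal cells had more Cxcl15, by 4.6 (basal minus luminal -4.6, SE 0.28, adjusted p = 4.4e-14), and more Cxcl17 (-1.47, SE 0.12). Smaller differences were seen for Cxcl16 (-0.45, SE 0.12), the Cxcr3 ligand Cxcl10 (-0.34, SE 0.11), the T cell attractant Ccl17 (-0.33, SE 0.09), the Ccr6 ligand Ccl20 (-0.27, SE 0.07) and the gut-homing receptor Ccr9 (-0.26, SE 0.1, adjusted p = 0.0366). Ccr9 was no longer called without any 1 of 9 single samples, at adjusted p of up to 0.0851.

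The luminal sorts differed from each other in 10 members, 18.2% of the family, against a background of 16.1% (9% higher and 7.11% lower in Sca1+ cells). The median difference was -0.1 over the members and -0.01 over all genes. In Sca1+ cells 2 members were higher and 8 lower. The Sca1+ sort is known to hold the hormone-sensing cells, and the Sca1- sort the progenitors of milk-secreting cells. Cxcl15 ran from 9.76 to 11.16 in Sca1+ samples and from 7.07 to 10.5 in Sca1- samples. The ranges overlapped, and the difference was 1.72 (SE 0.38, adjusted p = 0.00151). Cxcl17 was higher in Sca1+ cells by 1.17 (SE 0.17).

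Cxcr4 ran from 7.4 to 8.07 in 6 Sca1+ samples and from 9.24 to 9.58 in 6 Sca1- samples. The groups were fully apart, at a difference of -1.73 (SE 0.13, adjusted p = 7.2e-11). The other Cxcl12 receptor, Ackr3, was lower by -1.62 (SE 0.15), Cxcl14 by -1.33 (SE 0.11) and Cx3cl1 by -1.22 (SE 0.11). Both neutrophil attractants Cxcl2 (-1.14, SE 0.2) and Cxcl1 (-0.78, SE 0.11) were lower, as was Cxcl16 (-0.67, SE 0.16). The monocyte attractant Ccl9 (-0.53, SE 0.18, adjusted p = 0.0455) was near the threshold and was not called without any 1 of 17 single samples, at up to 0.132. Basal markers were lower in Sca1+ cells for 6 of 10 genes, and their part in the levels of Ackr3 and Cxcl14 was not tested.

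Between the basal sorts, 3 members (5.45%) were lower in CD49f-high cells and none higher, against a background of 3.54% (1.05% higher and 2.48% lower). These were Cxcl15 (-1.61, SE 0.41, adjusted p = 0.0243), Cxcl10 (-0.67, SE 0.15, adjusted p = 0.014) and Cxcl1 (-0.47, SE 0.12, adjusted p = 0.0238). Cxcl15 was lost without any 1 of 5 single samples (up to 0.105) and Cxcl1 without any 1 of 5 (up to 0.0714). Without parous CD49f-low replicate 2 only Cxcl10 remained, and without parous CD49f-high replicate 2 there were 5 members called.

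Parity was compared as parous minus nulliparous within each fraction, to find what differs after 1 completed cycle of pregnancy, lactation and involution. In stromal cells 5 members fell and none rose. Called members were 9.09% of the family, against a background of 0.597% of all genes (0.492% lower). The 5 were the ligands Cxcl9, Cxcl10, Cxcl5 and Ccl19 and the receptor Cxcr4. In these pooled samples fewer cells of a type and less RNA per cell cannot be told apart. The median difference was -0.09 over the members and 0.03 over all genes.

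Cxcl9, an interferon-gamma-induced ligand of Cxcr3, stood at 9.34, 8.52 and 9.03 in nulliparous stromal samples and at 6.63, 6.82 and 7.27 in parous ones. Every parous sample was more than 1 log2 unit below every nulliparous sample. The fall was 2.06 on the log2 scale (-2.06, SE 0.26, adjusted p = 2.2e-05), a 4.17-fold lower level, and it was called under all 46 alternatives. Its neighbour and fellow Cxcr3 ligand Cxcl10 stood at 9.01, 9.08 and 9.28 in nulliparous and at 8.26, 8.02 and 7.94 in parous stromal samples. Again the groups were apart, with a difference of -1.05 (SE 0.2, adjusted p = 0.0069). Without parous replicate 3 it was -0.99 (adjusted p = 0.0509). Cxcl11, the remaining Cxcr3 ligand, stood at 5.74, 5.35 and 5.15 against 4.83, 5.1 and 5. It did not pass (-0.44, SE 0.13, adjusted p = 0.166), although it did without nulliparous replicate 3 (-0.57, adjusted p = 0.0446).

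Cxcl9 and Cxcl10 lie on chromosome 5 with 1 protein-coding gene between them. Their RefSeq promoters (GRCm38.p6) are shown because both genes moved together, as the 250 bases before each start, 5′ to 3′ on the gene's strand. They are chr5:92348890-92349139 (minus strand) for Cxcl10 and chr5:92328080-92328329 (minus strand) for Cxcl9. Capitals mark an interferon-response-like motif, the letters TTTC, any 2 bases and TTTC again, read on either strand, and the NF-kB consensus.
Cxcl10: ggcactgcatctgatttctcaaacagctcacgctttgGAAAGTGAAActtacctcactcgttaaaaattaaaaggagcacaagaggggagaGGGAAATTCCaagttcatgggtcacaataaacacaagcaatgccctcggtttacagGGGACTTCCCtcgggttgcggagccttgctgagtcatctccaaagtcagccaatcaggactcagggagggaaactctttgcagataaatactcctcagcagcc
Cxcl9: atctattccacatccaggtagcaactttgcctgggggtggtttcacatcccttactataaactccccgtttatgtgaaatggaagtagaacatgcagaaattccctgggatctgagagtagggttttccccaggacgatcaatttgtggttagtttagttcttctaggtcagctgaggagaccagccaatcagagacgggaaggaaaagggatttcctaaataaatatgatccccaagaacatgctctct
In Cxcl10 the first capitals, 213 to 204 bases before the start, are the interferon-response-like motif, and the others, beginning 159 and 103 bases before the start, match the NF-kB consensus. The interferon-response-like motif matched in 2.98% of all 32851 promoters of this length and in 3 of 41 members (7.32%): Cxcl10, Ccl19 and Cxcl14. Neither motif matched in this window of Cxcl9, nor did the gamma-activated site TTCNNNGAA, which matched in 7.02% of promoters and in Ccl17, Ccr6 and Cxcl14. The motifs do not overlap each other in Cxcl10, and a match is a description of letters only.

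Ccl19, a Ccr7 ligand that guides dendritic cells and naive T cells, stood at 9.92, 9.13 and 10.28 in nulliparous and at 7.97, 8.84 and 8.03 in parous stromal samples. The groups did not overlap and differed by -1.49 (SE 0.28, adjusted p = 0.00501). Without nulliparous replicate 3 the difference was -1.24 (adjusted p = 0.0514). The array holds 4 probe sets for Ccl19, and they disagreed, with differences of -1.49 for the one used and of -2.35, -0.96 and 0.4 for the others. The mean of all 4 gave -1.1 (adjusted p = 0.0789). Ccr7 itself did not pass in any parity comparison.

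Cxcl5, a neutrophil attractant, stood at 6.29, 7.22 and 6.1 in nulliparous and at 5.08, 5.73 and 5.64 in parous stromal samples. Nulliparous replicate 2 was the highest, and no values overlapped (-1.06, SE 0.22, adjusted p = 0.0117). The call was lost without that sample (-0.71, adjusted p = 0.141) and without parous replicate 1 (-0.86, adjusted p = 0.109). Cxcr4 stood at 8.96, 8.68 and 8.58 in nulliparous and at 7.99, 7.95 and 7.37 in parous samples. The groups were apart (-0.97, SE 0.19, adjusted p = 0.0075), and the call was lost without parous replicate 3 (-0.77, adjusted p = 0.088) or nulliparous replicate 1 (-0.86, adjusted p = 0.0837). Its ligand Cxcl12 stood at 9.17, 8.64 and 9.1 against 8.46, 8.13 and 8.42. All parous values lay below all nulliparous ones, but the difference did not pass (-0.63, SE 0.22, adjusted p = 0.287).

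Cxcl13, the B cell attractant, stood at 11.54, 11.22 and 11.54 in nulliparous and at 9.2, 9.78 and 9.09 in parous stromal samples. The groups were more than 1 log2 unit apart, yet the difference of -2.07 was not called (SE 0.9, adjusted p = 0.465), with 1 spread per gene estimated over all fractions. Its samples scattered far more in basal cells, from 5.73 to 10.8 in CD49f-high samples. A fit to the 6 stromal samples alone gave the same difference with an adjusted p of 0.0117, and called 3 members, Cxcl9, Cxcl10 and Cxcl13. The share of all genes called in that fit is not given here.

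Other stromal ligands were not called. Ccl11 stood at 12, 12.06 and 12.23 in nulliparous and at 11.87, 12.07 and 12.02 in parous samples, which overlapped (-0.11, SE 0.33). Ccl2 stood at 11.35, 11.57 and 11.47 against 10.97, 11.14 and 10.96, with no overlap (-0.44, SE 0.31, adjusted p = 0.733). Ccl7 stood at 8.88, 8.76 and 9.15 against 8.26, 8.36 and 8.26 (-0.64, SE 0.19, adjusted p = 0.166). Cxcl1 differed by -0.2 (SE 0.16) with overlap and Ccl5 by -0.45 (SE 0.32), neither called. The 95% confidence interval for Ccl5 ran from -1.11 to 0.21.

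Marker lists moved in the same samples. Endothelial markers had a list mean of 7.26 to 7.83 in nulliparous and 6.85 to 7.11 in parous stromal samples, with Pecam1 called lower (-1.55, SE 0.36) and the other 9 not called. Fibroblast markers ran from 10.25 to 10.6 against 10.1 to 10.24, with Col3a1 called lower (-0.88, SE 0.15) among 10. Basal markers ran from 8.2 to 8.24 against 7.7 to 7.95, with Krt14 (-2, SE 0.22) and Krt5 (-1.85, SE 0.18) called lower among 10. None of 14 macrophage and dendritic markers (5.56 to 5.93 against 5.44 to 5.7), of 12 lymphocyte markers (4.79 to 5 against 4.66 to 4.93) or of 10 granulocyte and mast cell markers was called. The part of these cell types in the falls of Cxcl9, Cxcl10, Ccl19, Cxcl5 and Cxcr4 was not tested. Without parous replicate 3, 3 of the 5 members were called, namely Cxcl9, Ccl19 and Cxcl5.

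**Figure D3:**
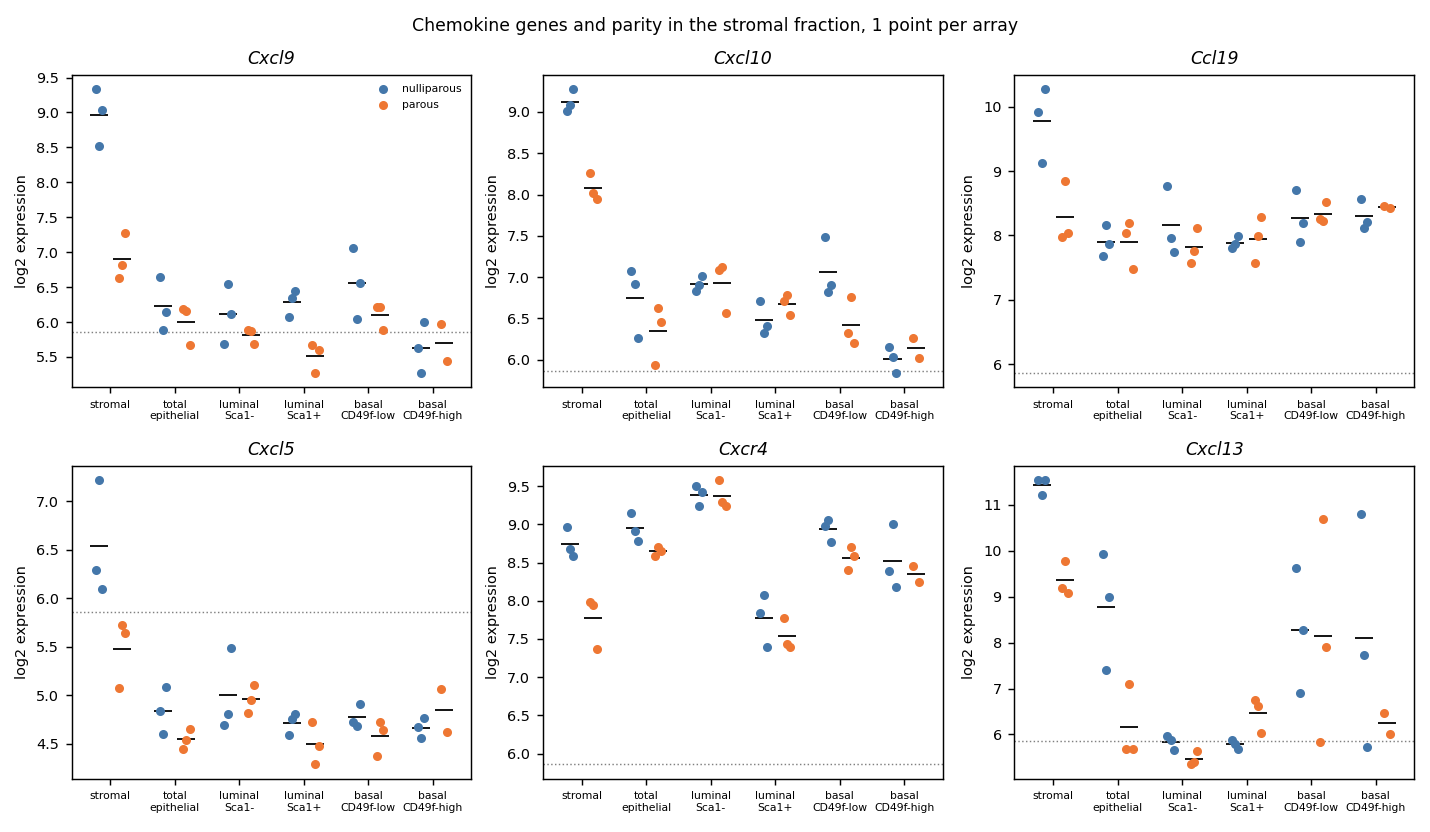
Log2 expression of chemokine family genes, 1 point per array, in 6 fractions (x axis), nulliparous in blue and parous in orange, with group means as black lines and the median of all deposited values as a dotted line. In stromal cells all parous points of Cxcl9, Cxcl10, Ccl19, Cxcl5 and Cxcr4 lie below all nulliparous points, and those of Cxcl13 do as well without a call.

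In total epithelial cells no member was called by limma, against a background of 0.446%. An unadjusted p under 0.05 was seen for 4 of 55 members and for 1448 of all 19937 genes. The largest differences were those of Cxcl13 at -2.62 (SE 0.9, adjusted p = 0.341), Ccl11 at -1.2 (SE 0.33, adjusted p = 0.133) and Ackr4 at -0.62 (SE 0.17, adjusted p = 0.124). Ccl11 stood at 9.44, 9.04 and 8.28 in nulliparous and at 8.88, 7.28 and 6.99 in parous samples. Parous replicate 1 was the only one to overlap, and without it the difference was -1.79 (adjusted p = 0.00116). Fibroblast markers ran from 6.52 to 7.22 in nulliparous and from 6.25 to 6.79 in parous samples, with none of 10 called, and their part in the values of Ccl11 was not tested. Ackr4 was called with array weights (-0.6, adjusted p = 0.0402).

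In luminal Sca1- cells 3 members were called, 5.45% of the family, against a background of 1% (0.662% higher and 0.341% lower): Ackr3 and Cxcl14 rose and Ccl20 fell. Ackr3 stood at 6.12, 5.47 and 6.1 in nulliparous and at 7.33, 6.9 and 7.09 in parous samples. All parous values were higher, by 1.21 on average (SE 0.22, adjusted p = 0.00218), and the call held without any single sample. Cxcl14 stood at 6.96, 6.44 and 6.87 against 7.87, 7.44 and 7.37. No values overlapped (0.8, SE 0.16, adjusted p = 0.0057), but the call was lost without parous replicate 1 (0.65, adjusted p = 0.0732) or nulliparous replicate 2 (0.64, adjusted p = 0.0846), and Ackr3 alone was then called.

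Ccl20, which attracts cells bearing Ccr6, stood at 5.84, 6.6 and 6.59 in nulliparous and at 5.76, 5.59 and 5.89 in parous luminal Sca1- samples. The lowest nulliparous value lay within the parous range, and the difference of -0.6 (SE 0.14, adjusted p = 0.0308) was lost without any 1 of 4 samples of these groups, at up to 0.221, and after quantile normalization (-0.54, adjusted p = 0.0704). Its receptor Ccr6 stood at 5.6, 5.2 and 4.96 against 4.84, 4.7 and 4.71, without overlap and not called (-0.5, SE 0.16, adjusted p = 0.139). Ccl5, a T cell and monocyte attractant, stood at 7.79, 9.52 and 8.06 against 7.18, 7.42 and 6.96. Nulliparous replicate 2 was far above the rest, and the difference of -1.27 (SE 0.32) just missed the threshold (adjusted p = 0.0501). It was called under 19 of 46 alternatives, among them the fits without nulliparous replicate 1 (-1.6, adjusted p = 0.0104) or 3 (-1.46, adjusted p = 0.0482). Without nulliparous replicate 2 the difference was -0.73 (adjusted p = 0.37).

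Basal markers moved beside the rise of Ackr3 and Cxcl14, which are both higher in basal cells. The basal list mean ran from 6.65 to 6.9 in nulliparous and from 7.16 to 7.39 in parous luminal Sca1- samples, and 3 of 10 genes rose: Krt5 (1.3, SE 0.18), Cnn1 (1.21, SE 0.2) and Myh11 (0.93, SE 0.19). The part of basal cells in these rises was not tested. In luminal Sca1+ cells no member was called by limma, against a background of 0.607%. An unadjusted p under 0.05 was seen for 7 of 55 members and 1322 of 19937 genes, and the members included Cxcl9 (-0.78, SE 0.26, adjusted p = 0.329), Ccl25 (0.56, SE 0.18, adjusted p = 0.308) and Ackr3 (0.5, SE 0.22, adjusted p = 0.634). Ackr3 stood at 4.91, 4.53 and 4.44 against 5.51, 5.5 and 4.4. Parous replicate 3 was the lowest of all, and without it the difference was 0.87 (adjusted p = 0.0217).

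In basal CD49f-low cells 2 members fell, 3.64% of the family, against a background of 0.968% (0.682% lower). Ccl11 stood at 9.52, 9.57 and 9.02 in nulliparous and at 7.43, 8.39 and 7.37 in parous samples. The groups did not overlap (-1.64, SE 0.33, adjusted p = 0.00849). The call was lost without parous replicate 1 (-1.49, adjusted p = 0.0557), parous replicate 3 (-1.46, adjusted p = 0.0718) or nulliparous replicate 2 (-1.55, adjusted p = 0.0661).

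Ackr4 stood at 7.07, 6.47 and 6.39 in nulliparous and at 5.72, 5.8 and 5.93 in parous CD49f-low samples. All parous values were lower (-0.83, SE 0.17, adjusted p = 0.00959). Nulliparous replicate 1 was the highest, and without it the difference was -0.62 (adjusted p = 0.0978), while without parous replicate 1 it was -0.78 (adjusted p = 0.0523). Fibroblast markers had a list mean of 6.6 to 7.07 in nulliparous and 6.22 to 6.4 in parous CD49f-low samples, and 1 of 10, Lum, fell (-1.7, SE 0.41). Their part in the fall of Ccl11 was not tested.

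In basal CD49f-high cells 3 members were called, 5.45% of the family and under the background of 9.06% (4.01% higher and 5.05% lower), with 2 parous samples against 3. Ccl11 stood at 8.48, 8.58 and 9.19 in nulliparous and at 6.66 and 6.67 in parous samples. The gap exceeded 1 log2 unit, and the difference was -2.09 (SE 0.37, adjusted p = 5.3e-04), called without any single sample. Fibroblast markers ran from 5.84 to 6.4 in nulliparous and from 5.85 to 5.92 in parous samples, which overlapped, with none of 10 called. Of 10 basal markers 4 rose in this comparison, and of 10 endothelial markers Emcn fell (-2.36, SE 0.74). Their part in the fall of Ccl11 was not tested.

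The other calls in CD49f-high cells each rested on 1 of the 2 parous samples. Ccl12, a ligand of Ccr2, stood at 4.15, 3.77 and 3.99 in nulliparous and at 5.53 and 4.1 in parous samples, replicates 2 and 3. The difference of 0.85 (SE 0.26, adjusted p = 0.0355) shrank to 0.14 without parous replicate 2, and the call was also lost without nulliparous replicate 2 (0.75, adjusted p = 0.128) or 3 (0.86, adjusted p = 0.0717). Cxcr3 stood at 5.59, 5.69 and 5.76 against 5.81 and 7.03, and its difference of 0.74 (SE 0.2, adjusted p = 0.0195) shrank to 0.13 without parous replicate 3. Cxcl2 (0.93, SE 0.32, adjusted p = 0.0696) and Ccl6 (1.28, SE 0.43, adjusted p = 0.0602) also had their highest value in parous replicate 2, at 9.05 and 7.67, and were not called. The leukocyte genes Cd68 (1.2, SE 0.29) and Camp (0.57, SE 0.15) rose in the same comparison, 1 of 14 and 1 of 10 in their lists, and their part was not tested. Without nulliparous replicate 1, 5 members were called, Ccl28 (-1.46, adjusted p = 0.0279) and Cxcl2 being added.

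**Figure D4:**
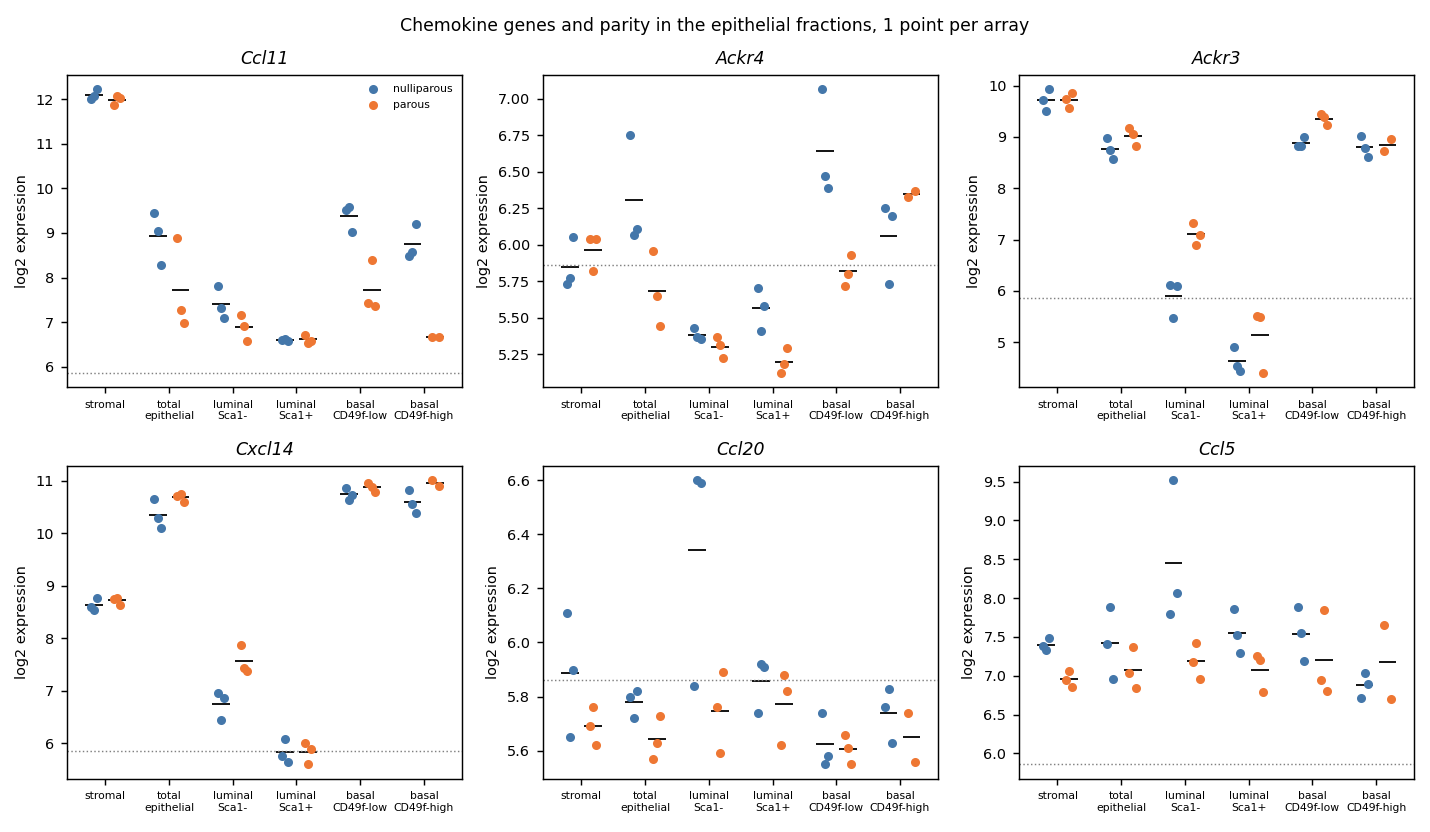
Log2 expression of 6 chemokine family genes, 1 point per array, in 6 fractions (x axis), nulliparous in blue and parous in orange, with group means as black lines and the median of all deposited values as a dotted line. Parous points of Ccl11 lie below all nulliparous points in both basal fractions while the stromal points overlap near 12, and parous points of Ackr3 and Cxcl14 lie above all nulliparous points in luminal Sca1- cells.

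Averaged over the 4 sorted epithelial fractions, 3 members were called, 5.45% against a background of 6.2% (2.72% higher and 3.49% lower). Ccl11 fell by 1.06 (-1.06, SE 0.17, adjusted p = 1.8e-04), while Ackr3 (0.56, SE 0.11, adjusted p = 0.00175) and Cxcl14 (0.32, SE 0.08, adjusted p = 0.0138) rose. All 3 held without any single sample, and Cxcl14 was lost without nulliparous replicate number 3 in every fraction (0.29, adjusted p = 0.0716). These averages do not stand for an even shift. Within single fractions Ccl11 was called only in both basal ones, and Ackr3 and Cxcl14 only in luminal Sca1- cells. Of 10 basal markers 4 rose in the same average and of 10 fibroblast markers Dcn fell, and their part was not tested. Cxcl15, at 0.79 (SE 0.28, adjusted p = 0.0961), did not pass but was called without nulliparous luminal Sca1- replicate 1 (0.91, adjusted p = 0.0459) or nulliparous CD49f-high replicate 1 (0.91, adjusted p = 0.0365). Its parous values were higher on average in 3 of the 4 fractions, by 1.34, 0.7 and 1.25 in luminal Sca1-, luminal Sca1+ and CD49f-low cells, and differed by -0.14 in CD49f-high cells. Counts of called members rose to between 5 and 7 without nulliparous luminal Sca1- replicate 1 (7), nulliparous CD49f-high replicate 2 (6), nulliparous CD49f-low replicate 2 (5) or parous CD49f-high replicate 2 (5).

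Whether the parity difference itself varied among the 6 fractions was tested with a moderated F test, which called 4 members (7.27%) against a background of 2.8%: Cxcl9, Ccl11, Ackr4 and Cxcl10. For Cxcl9 the stromal difference was larger than that in total epithelial cells by 1.83 (-1.83, SE 0.36, adjusted p = 0.018), in luminal Sca1- cells (-1.76, adjusted p = 0.0203) and in CD49f-high cells (-2.13, adjusted p = 0.00166). It was not distinguished from luminal Sca1+ cells (-1.28, adjusted p = 0.156) or CD49f-low cells (-1.62, adjusted p = 0.0501). For Ccl11 the CD49f-high fall exceeded the stromal difference by 1.98 (SE 0.5, adjusted p = 0.0223) and that of luminal Sca1+ cells by 2.1 (SE 0.5, adjusted p = 0.0185). For Ackr4 the CD49f-low and CD49f-high differences were 1.12 apart (-1.12, SE 0.25, adjusted p = 0.0165). For Cxcl10 the stromal fall differed from luminal Sca1+ cells (-1.25, adjusted p = 0.0436) and from CD49f-high cells (-1.19, adjusted p = 0.026). Single samples moved this count: it was 1 without nulliparous stromal replicate 1, and 2 without parous luminal Sca1+ replicate 1, parous CD49f-low replicate 1 or nulliparous CD49f-high replicate 2 or 3.

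**Figure D5:**
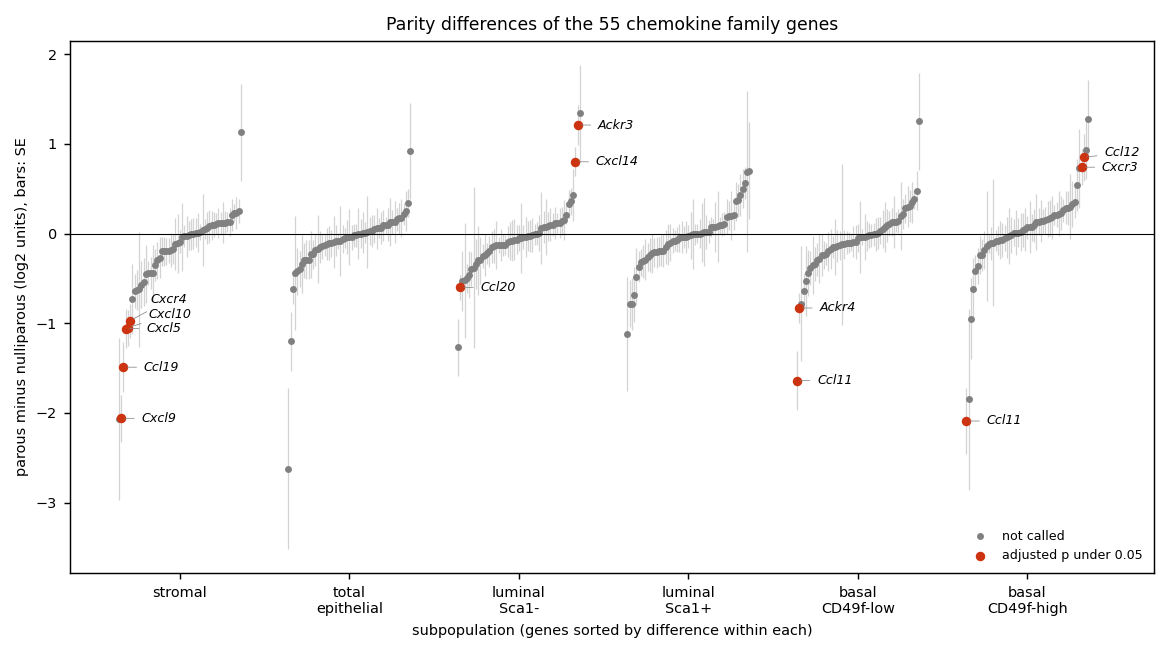
Parous minus nulliparous difference in log2 units with its standard error (bars) for all 55 chemokine family genes, sorted by size within each of the 6 fractions on the x axis, with called genes (adjusted p under 0.05) in red and named. The stromal calls are all below 0, no gene is called in total epithelial or luminal Sca1+ cells, and Ccl11 is called in both basal fractions.

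Signalling receptors were mostly flat. Apart from Cxcr4 in stromal and Cxcr3 in CD49f-high cells, none of the 17 was called in a parity comparison within a fraction. Ccr2, the receptor of Ccl2, Ccl7 and Ccl12, had group means of 3.12 to 3.47 and no sample above the array median. The fractalkine receptor Cx3cr1 had group means of 6.32 to 6.57 and lay above it in all 35 samples. Group means of Ccr1, Ccr3, Ccr4, Ccr6, Ccr8, Ccr9, Cxcr1, Cxcr2, Cxcr5, Cxcr6 and Xcr1 stayed within 0.73 of each other per gene, and no sample of any of them exceeded the array median.

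Ccl28, Cx3cl1 and Cxcl16 did not pass in any parity comparison within a fraction. Ccl28, a mucosal chemokine known for drawing antibody-secreting cells to the lactating gland, ranged from 4.86 to 7.57 over all samples, and its CD49f-high difference was -0.95 (SE 0.45, adjusted p = 0.206). Cx3cl1 differed by 0.33 (SE 0.16, adjusted p = 0.431) in luminal Sca1- cells and by -0.42 (SE 0.18, adjusted p = 0.15) in CD49f-high cells. Cxcl16 differed by -0.27 to 0.43 over the 6 fractions, with no call.

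The rest of the pathway was described from 3 lists. Of 26 measured genes of chemokine signal transduction, none was called in 5 of the 6 parity comparisons within a fraction. In CD49f-high cells the receptor kinase gene Grk5 (0.94, SE 0.21) and the arrestin gene Arrb2 (0.77, SE 0.24) rose, and Arrb1 (-0.82, SE 0.22) and the G protein gene Gnai3 (-0.57, SE 0.11) fell. The other 22 were not called there, against a background of 9.06% of all genes called. The inducer list held 20 measured genes for cytokines and transcription factors that induce chemokines and for regulators of NF-kB, inhibitors included. Of these, Tnfaip3, a target and inhibitor of NF-kB signalling, fell in stromal cells (-0.83, SE 0.16, adjusted p = 0.00689). The other 19 were not called there. The background in stromal cells was 0.597% of all genes. In CD49f-low cells 1 of the 20, the NF-kB inhibitor gene Nfkbia, rose (0.66, SE 0.16), against a background of 0.968%. In CD49f-high cells Fos (1.74, SE 0.24) and Irf1 (1.29, SE 0.25) rose while Nfkb2 (-0.52, SE 0.13) and Stat3 (-0.38, SE 0.09) fell. The other 16 were not called there, against the same 9.06%.

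Between stromal and total epithelial cells, 29.2% of all genes were called (13.6% higher and 15.6% lower in stroma). Of 26 signal transduction genes, 5 were higher in stroma, led by Rgs16 (1.46, SE 0.2), 1, Arrb1, was lower (-0.45, SE 0.14) and 20 were not called. Among the 20 genes of the inducer list 4 were higher, Il6 by 4.11 (SE 0.56) and, by less, Tnfaip3, Nfkbiz and Jun. Tnf (-1, SE 0.18) and Nfkb2 were lower, and 14 were not called. Of 18 relatives and processing genes, 7 were higher in stroma, among them the chemokine-cleaving protease gene Dpp4 (5.46, SE 0.11), the chemerin gene Rarres2 (4.18, SE 0.2) and Mmp2 (1.93, SE 0.17). The other 3 called were lower: Adam10, a protease that sheds Cx3cl1 and Cxcl16 (-1.28, SE 0.14), Sdc4 (-0.99, SE 0.1) and Mif (-0.87, SE 0.12). Adam17, a protease of the same family, was among the 7 genes higher in stroma. Adam10 was on the epithelial side with both of its membrane-anchored chemokines in this comparison. In other comparisons it was not: Adam10 was higher in luminal Sca1+ than in Sca1- cells, where both chemokines were lower. In basal cells Adam10 and Cxcl16 were lower than in luminal cells, and Cx3cl1 was higher. None of the 18 was called in stromal, total epithelial or luminal parity comparisons. Adam17 fell in CD49f-low cells (-0.56, SE 0.14), against a background of 0.968% of all genes. In CD49f-high cells Cmklr1 rose (0.89, SE 0.26) and Sdc1 fell (-0.73, SE 0.19), against 9.06%, and the other 16 were not called.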

How the data were processed

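Expression was measured by array in 35 samples, in 12 groups of 6 fractions and 2 histories, grouped from the labels. Per the labels, RNA was amplified and hybridized as biotin-labelled cDNA. The deposited log2 values, 1 per probe set, run from 1.74 to 13.28, with array medians of 5.81 to 5.92. The submitters' processing notes name affy. Its version, the normalization and any genome build were not given in the sources used here.

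A platform annotation gave 1 symbol to 21640 of 34760 probe sets, several to 1321 and none to 11799, and the latter kinds were left out. For 954 genes with several probe sets the one with the highest mean was used, as for 2 members, Ccl19 and Ccl25.

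One linear model with 12 group means took in all samples, in R 4.3.3 with limma 3.58.1 (lmFit, eBayes with trend), with p adjusted over all 19937 genes, and the fit was tested on simulated data. Members and lists were chosen with earlier results of these data known. Named in full are members called in a parity comparison, the 8 largest per direction between fractions and a panel, and from other lists up to 3 called genes per direction, while further called members between fractions (Ccl8, Ccl19, Ccl25, Cxcl2, Cxcl3, Cxcl11, Ackr1 and Ackr3) and uncalled members near the threshold were named after their values were seen. Alternatives were another eBayes prior, array weights, quantile normalization, leaving out dim genes, the mean of probe sets, random or fixed blocks by replicate number, single fractions, and leaving out each sample, and nulliparous replicate numbers 1 and 3 in every fraction. Array weights per fraction were added after seeing the data. Promoters came from RefSeq for 41 members.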

Additional observations from a re-analysis of the deposited data

Results flagged for a closer look

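For 4 members the parity difference varied among the 6 fractions in the moderated F test of limma, with adjusted p over all genes.

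For Cxcl9 the adjusted p was 0.00642 (F = 8.39). All 3 parous stromal samples lay below all nulliparous ones (-2.06), and in the other fractions the differences ran from -0.78 to 0.07. The call held without any single sample and was lost only without nulliparous replicate number 3 in every fraction (0.0547), among 45 alternatives.

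For Ackr4 the adjusted p was 0.0288 (F = 6.14). Parous minus nulliparous differences were -0.83 in CD49f-low and 0.29 in CD49f-high cells, with all 3 parous samples lower in the first and both parous samples higher in the latter. The call was lost in 6 of 45 alternatives, 5 of them single samples left out, at up to 0.0637.

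For Ccl11 the adjusted p was 0.0295 (F = 6.11). Differences were -2.09 in CD49f-high, -1.64 in CD49f-low, -0.11 in stromal and 0.01 in luminal Sca1+ cells. The call was lost in 9 of 45 alternatives, 5 of them single samples left out, at up to 0.0884.

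For Cxcl10 the adjusted p was 0.0411 (F = 5.64), with -1.05 in stromal and 0.19 in luminal Sca1+ cells. The call was lost in 24 of 45 alternatives, 20 of them single samples left out, at up to 0.0995.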

How the results depend on the processing

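Over 103 results of single members and 4726 alternatives, 4566 kept direction and side of the threshold, 98 lost the call, 62 gained it and 0 changed direction. Counts of called members, as reported and under alternatives, moved as follows, and the cause was not tested. The shares over all genes given above belong to the main fit, and those of the alternatives are not given. For CD49f-high against CD49f-low (3), there were 0 with array weights, 0 with weights per fraction, 0 with these fractions alone, and 5 each without dim genes, with the replicate number and history as a random block, with the replicate block and without nulliparous replicate number 3 in every fraction. The mean epithelial parity count (3) was 5 after quantile normalization and 6 without nulliparous replicate number 1 in every fraction. The count of parity differences that varied (4) was 2 without nulliparous replicate number 3 in every fraction and 1 with weights per fraction. Within 1 fraction fitted alone, the parity counts were 3 in stromal (5 as reported), 1 in luminal Sca1- (3), 0 in CD49f-low (2) and 0 in CD49f-high cells (3), where fewer samples estimate the spread. In CD49f-high cells the count was 1 with array weights, 1 with weights per fraction and 5 without nulliparous replicate number 1 in every fraction, and in total epithelial cells (0) it was 1 with either weighting.

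With each sample left out in turn, counts ran from 3 to 5 in stromal, 0 to 1 in total epithelial, 1 to 4 in luminal Sca1-, 0 to 1 in luminal Sca1+, 0 to 2 in CD49f-low and 2 to 5 in CD49f-high cells, from 3 to 7 for the mean epithelial parity difference and from 1 to 5 for varying differences. Between fractions they ran from 23 to 25 (stromal against epithelial), 16 to 21 (basal against luminal), 9 to 11 (luminal sorts), 1 to 5 (basal sorts) and 27 to 30 (all fractions). Where 1 parous CD49f-high sample is left, it is assumed to vary like the other groups.

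Same-numbered samples of 1 history correlated at 0.01 to 0.34 over 85 pairs of fractions, 43 of them over 0.1, while other-numbered samples of 1 history correlated at -0.28 to 0.07 over 170 pairs, 0 of them over 0.1. Samples of the same number and history thus deviated together more than others, and the labels do not say whether they share a pool. Same-numbered parous and nulliparous samples of 1 fraction correlated at -0.05 to 0.23 over 17 pairs, 4 of them over 0.1. Their median was 0.07, against 0.1 for same-numbered and -0.05 for other-numbered samples of 1 history. The labels do not say whether equal numbers link the histories, and this was not tested. The replicate block changed 1 count by more than 1.5 times, that of the basal sorts given above, and it called Ccl5 in luminal Sca1- cells (adjusted p = 0.00612) and Ccl6 in CD49f-high cells (0.0106).

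Limits are 2 or 3 arrays per group, a wider spread in CD49f-high cells (mean SD 0.255 against 0.175 to 0.199), pooled cells, pan-luminal transcripts in stromal samples and, for most signalling receptors, signals under the array median.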

Other observations

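Members that lie side by side in the genome did not share 1 pattern. On chromosome 11, in the RefSeq order of GRCm38.p6, Ccl2, Ccl7, Ccl11, Ccl12, Ccl8 and Ccl1 follow each other with no other protein-coding gene between them. Ccl2, Ccl7, Ccl11 and Ccl8 were called higher in stromal than in total epithelial cells, where 29.2% of all genes were called (13.6% higher). Group means of Ccl1 lay within 0.27 of each other and those of Ccl12 within 0.87. In the chromosome 11 run of Ccl5, Ccl9, Ccl6, Ccl3 and Ccl4, none was called in that comparison. In others, Ccl6 was called higher in basal than in luminal cells, and Ccl9 lower in luminal Sca1+ than in Sca1- cells. On chromosome 8, Cx3cl1 lies between Ccl22 and Ccl17: Cx3cl1 was higher in basal than in luminal cells (0.59), Ccl17 lower (-0.33), and group means of Ccl22 lay within 0.33 of each other.

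Some ligands known from leukocytes scattered widely within groups. Ccl3 ran from 4.89 to 7.68 in 3 nulliparous CD49f-high samples. Its mean SD within groups was 0.86, and its group means lay up to 1.71 apart. Ccl6 ran from 5.4 to 7.49 in 3 nulliparous CD49f-low samples. Its mean SD within groups was 0.55, and its group means lay up to 1.28 apart.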
